A study of Mus musculus with 10 samples.

Results

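The chromatin around Cited2 and around 3 genes of the hypoxia-inducible factor (HIF) system, Hif1a, Epas1 and Egln3, was followed in regulatory T cells (Tregs) with and without the lipid kinase Vps34. Members were all peaks of open chromatin that overlapped chr10:17530000-17740000, the Cited2 region, or that lay in the body of Hif1a, Epas1 or Egln3 or within 10 kb of it. This gave 56 of 97385 peaks, with 25 in the Cited2 region, 13 at Hif1a, 12 at Epas1 and 6 at Egln3. The 4 genes were selected on accessibility measured in these same libraries, and the comparison that led to them is not recorded. Differences at their peaks are therefore descriptions. Where a member peak is said to be called, this marks its place among all peaks and is not independent evidence.

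CITED2 is a nuclear protein that binds the coactivators CBP and p300 and so competes with HIF-1α, the oxygen-regulated transcription factor subunit encoded by Hif1a, which needs the same coactivators. Epas1 encodes HIF-2α, the related subunit. Egln3 encodes PHD3, a prolyl hydroxylase that uses oxygen to mark HIF-α subunits for destruction through the VHL ubiquitin ligase. In T cells HIF-1α is best known for raising glycolysis, and in Tregs for altering their stability and migration.

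Accessibility was measured by ATAC-seq, which marks open DNA by where a transposase can cut it. Vps34 is encoded by Pik3c3. The mice were 10 days old, and every group carried Cre recombinase expressed from Foxp3, so that deletion was limited to cells that express this Treg factor. Control mice were Foxp3Cre with Pik3c3 alleles +/+ or +/fl, so a control could lack 1 copy in Tregs, and Vps34-deficient mice were Foxp3CrePik3c3fl/fl. CD4+Foxp3-YFP+TCRb+ Tregs were sorted, giving 6 spleen libraries, of which 2 were control and 4 Vps34-deficient, and 4 lung libraries, with 2 of each genotype. Nothing in the labels says whether the libraries of a group came from separate or pooled mice, so errors and p-values measure only the spread between these libraries.

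Library totals ran from 9405823 to 22439699 counts, and values are given as CPM, counts scaled to that total. All 56 member peaks held enough counts to be fitted. A peak was called where the Benjamini-Hochberg adjusted p over all 97109 fitted peaks was below 0.05 and the absolute log2 fold change above 0.5, in the quasi-likelihood fit of edgeR. Peaks at Foxp3 summed to 137 to 214 CPM per library over 12 peaks, although none lay over its annotated start, and 5 of 7 Treg and T cell genes had a peak over their start. Over the starts of endothelial genes the summed signal was 26.6 to 35.6 CPM (3 of 9 genes with a peak) and overlapped between genotypes in both tissues. The lists of B cell (2 of 8), epithelial (3 of 7), CD8 and NK (4 of 6) and myeloid genes (3 of 9) did not, and are given by group after the Cited2 peaks.

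The 5 distal Cited2 peaks called in the genotype comparisons carry most of what follows, so the central 200 bases of 4 of them are printed here, read 5′ to 3′ from the plus strand of GRCm38. Beside them stand a neighbouring Cited2 peak that was not called, an Egln3 peak with a tissue difference and the leading Arnt2 peak of the wider pathway, chosen after their values were seen. Capitals mark matches on either strand to ACGTG or GCGTG (the core of the hypoxia response element), TGANTCA (AP-1), TGTGGT (Runx) or CACGTG (E-box, which contains ACGTG). The windows are, in order, chr10:17549042-17549241, chr10:17565365-17565564, chr10:17584955-17585154, chr10:17654426-17654625, chr10:17567020-17567219, chr12:54182297-54182496 and chr7:84386692-84386891.
Cited2, 174.1 kb upstream: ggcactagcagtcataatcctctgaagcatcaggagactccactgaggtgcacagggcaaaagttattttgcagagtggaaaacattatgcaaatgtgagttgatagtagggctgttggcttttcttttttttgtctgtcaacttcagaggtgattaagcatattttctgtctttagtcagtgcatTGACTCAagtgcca
Cited2, 157.8 kb upstream: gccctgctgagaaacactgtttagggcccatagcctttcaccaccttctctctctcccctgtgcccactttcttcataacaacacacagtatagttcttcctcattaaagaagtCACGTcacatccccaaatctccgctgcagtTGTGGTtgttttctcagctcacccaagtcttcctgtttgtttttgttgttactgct
Cited2, 138.2 kb upstream: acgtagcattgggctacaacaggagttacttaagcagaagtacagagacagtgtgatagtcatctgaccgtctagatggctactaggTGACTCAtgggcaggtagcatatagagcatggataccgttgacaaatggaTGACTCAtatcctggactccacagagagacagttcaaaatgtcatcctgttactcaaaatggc
Cited2, 68.7 kb upstream: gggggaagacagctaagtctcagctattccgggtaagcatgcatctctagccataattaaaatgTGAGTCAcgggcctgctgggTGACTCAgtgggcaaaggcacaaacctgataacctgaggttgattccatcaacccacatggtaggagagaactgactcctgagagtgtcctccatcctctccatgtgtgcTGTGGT
Cited2, 156.1 kb upstream: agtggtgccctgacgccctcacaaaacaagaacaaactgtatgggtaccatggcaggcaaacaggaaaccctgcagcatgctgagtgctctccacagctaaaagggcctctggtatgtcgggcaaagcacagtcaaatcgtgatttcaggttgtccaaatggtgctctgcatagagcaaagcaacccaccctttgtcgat
Egln3, 21.5 kb downstream: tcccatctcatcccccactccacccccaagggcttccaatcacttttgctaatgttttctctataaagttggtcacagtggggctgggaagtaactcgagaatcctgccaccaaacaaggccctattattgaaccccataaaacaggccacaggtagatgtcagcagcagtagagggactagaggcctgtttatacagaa
Arnt2, 23.4 kb downstream: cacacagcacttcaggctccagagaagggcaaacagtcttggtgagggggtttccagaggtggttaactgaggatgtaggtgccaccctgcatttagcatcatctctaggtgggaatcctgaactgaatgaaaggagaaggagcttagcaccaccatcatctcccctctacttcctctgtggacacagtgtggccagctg

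Of the 5 called peaks 4 are shown, and 3 of these 4 held a TGANTCA match in the window, at 174.1, 138.2 and 68.7 kb upstream of the Cited2 start, and the last of these had 2 matches, as did the peak at 138.2 kb. The central windows of all 97250 peaks on assembled chromosomes held TGANTCA in 9.91%. TGTGGT lay in 2 of the 4 windows, against 20.03% of all windows. The hypoxia core ACGTG lay in 1 of the 4, at 157.8 kb, and in 12.9% of all windows, whereas GCGTG and CACGTG lay in none of the 4 and in 17.47% and 4.34% of all windows. Over the 25 Cited2 peaks, TGANTCA lay in 5 windows, TGTGGT in 6, ACGTG in 5, GCGTG in 1 and CACGTG in 3. The printed Cited2 peak at 156.1 kb and the Egln3 and Arnt2 peaks held no match. These letters describe the windows and are not evidence of a bound factor.

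Cited2 itself lies at chr10:17723218-17725674 on the plus strand (ENSMUSG00000039910.10). Of its 25 peaks, 5 lay within 11 kb of the start and 20 lay more than 20 kb upstream, of which 13 overlapped the non-coding gene Gm47771. Loss of Vps34 went with lower accessibility at the upstream peaks and with smaller differences around the gene. Summed over the 20 upstream peaks, signal was 112 ± 6.36 CPM in spleen control and 70.0 ± 6.24 CPM in spleen Vps34-deficient Tregs, or 37.7% lower (mean ± SD, n = 2 and 4). In lung the same sum was 130 ± 7.06 CPM in control and 67.2 ± 9.32 CPM in Vps34-deficient Tregs, or 48.4% lower (n = 2 each). Over the 5 peaks near the gene it was 228 ± 10.9 and 210 ± 10.97 CPM in spleen, and 195 ± 6.40 and 196 ± 5.99 CPM in lung. In these bulk libraries, fewer cells with an open site cannot be told apart from less opening per cell.

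**Figure D1:**
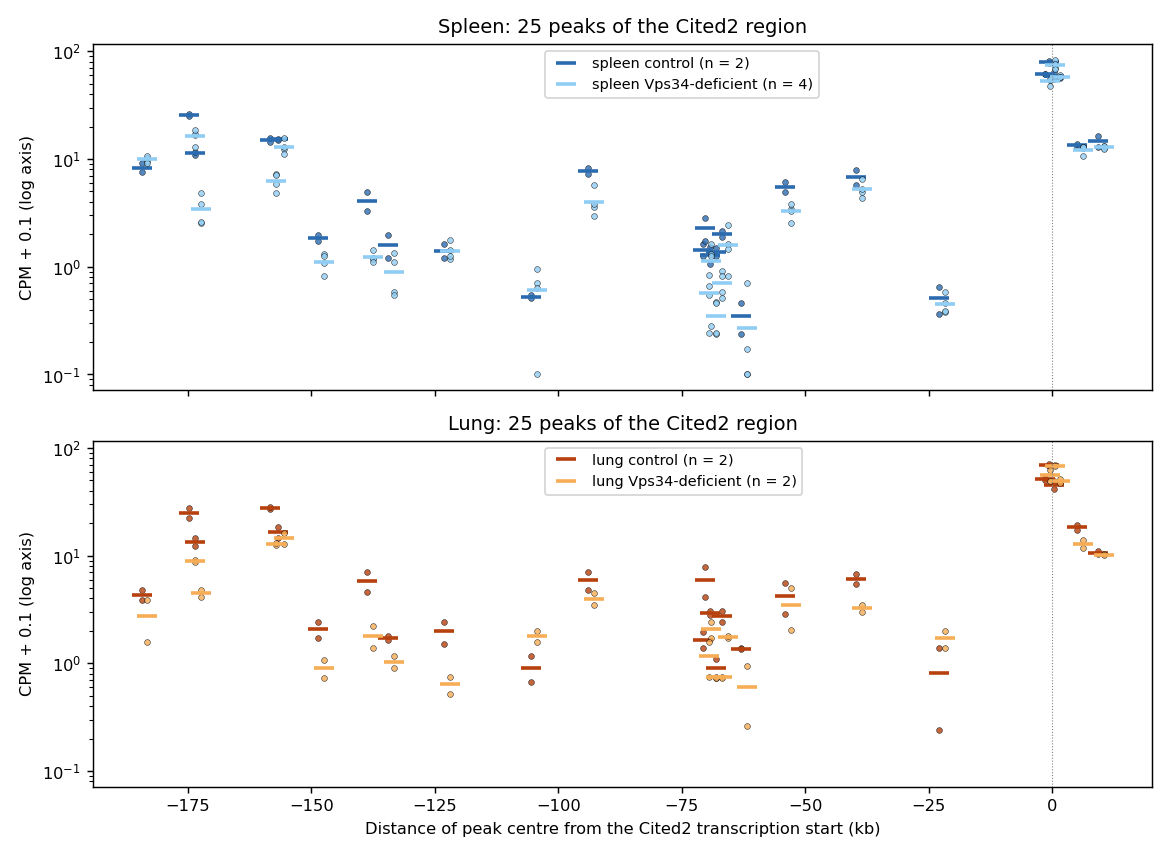
Accessibility of the 25 Cited2 region peaks in CPM plus 0.1 on a log axis, against the distance of each peak's centre from the Cited2 start in kb, with points for libraries, bars for group means, spleen above and lung below. Control and Vps34-deficient levels lie close together at the 3 peaks around the start, though spleen is lower without Vps34 at 0.9 kb upstream, and most upstream peaks have lower Vps34-deficient means.

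In spleen, 5 of the 25 Cited2 peaks were called lower and 0 higher in Vps34-deficient Tregs, where 1.02% and 0.441% of all fitted peaks were called lower and higher. In lung, 5 were again called lower and 0 higher, against 3.74% and 1.22% of all fitted peaks. The same 5 peaks were called in both tissues. The median log2 fold change over the 25 peaks was -0.60 in spleen and -0.71 in lung, beside medians of 0.05 and 0.02 over all fitted peaks. Negative values were found at 23 of the 25 peaks in spleen and at 21 in lung.

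The called peak farthest from the gene lay 174.1 kb upstream, between genes (chr10:17548652-17549630). It held 26.1 and 25.1 CPM in spleen control and 16.7, 17.0, 12.9 and 18.5 CPM in spleen Vps34-deficient Tregs. Lung control libraries held 22.1 and 27.8 CPM and lung Vps34-deficient libraries 8.93 and 8.68 CPM. Every Vps34-deficient library lay below every control of its tissue, and the lung values were the lowest. On the log2 scale the fold change was -0.66 ± 0.153 (fitted value ± SE, as throughout) for spleen and -1.53 ± 0.198 in lung, a difference of -0.87 ± 0.252 that was not called. The spleen call was lost without either spleen control library, at -0.68 and -0.72. Between tissues, the log2 difference of lung from spleen was -0.83 ± 0.178 in Vps34-deficient Tregs and 0.05 ± 0.180 in control.

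Its neighbour 172.9 kb upstream held 10.9 and 11.6 CPM in spleen control, and 4.73, 2.45, 2.53 and 3.73 CPM in the Vps34-deficient libraries. In lung it held 12.1 and 14.4 CPM in control and 4.06 and 4.66 CPM without Vps34. The genotypes did not overlap in either tissue, and the drop was of like size in both. In log2 terms the genotype effect was -1.76 ± 0.229 (spleen) and -1.64 ± 0.287 (lung), with a difference between tissues of 0.12 ± 0.370. Both calls held with any single library left out.

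The peak 157.8 kb upstream (chr10:17565249-17565679), inside Gm47771, differed by both genotype and tissue. Spleen control libraries held 14.2 and 15.4 CPM, and the spleen Vps34-deficient libraries 7.23, 6.97, 5.78 and 4.74 CPM. In lung, control libraries held 27.2 and 28.1 CPM and Vps34-deficient libraries 12.3 and 13.1 CPM. All 4 groups were separate, with lung Vps34-deficient levels just under those of spleen control. Genotype gave a log2 fold change of -1.26 ± 0.172 in spleen and of -1.14 ± 0.202 in lung. The log2 difference of lung from spleen was 0.98 ± 0.195 in control, which was not called without the first spleen control library (0.82), and 1.09 ± 0.181 in Vps34-deficient Tregs. A further peak at 156.1 kb, named here after its values were seen, held 15.1 ± 0.160 and 13.0 ± 1.90 CPM in spleen and 16.4 ± 2.53 and 14.4 ± 2.49 CPM in lung, control first, with overlapping libraries in every comparison. Its log2 fold changes with genotype were -0.22 ± 0.167 and -0.20 ± 0.202.

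At 138.2 kb upstream (chr10:17584895-17585213) spleen control libraries held 4.81 and 3.17 CPM and Vps34-deficient libraries 1.11, 1.35, 1.08 and 1.005 CPM. Lung libraries held 4.46 and 6.92 CPM in control and 1.299 and 2.12 CPM in Vps34-deficient Tregs. Control libraries were all above the Vps34-deficient ones, but spread more. Spleen and lung gave nearly the same log2 fold change, -1.81 ± 0.317 and -1.79 ± 0.393. The spleen call was lost without the first spleen control library, at -1.52. The lung call was lost without the second control library, at -1.39, and without the first Vps34-deficient library, at -1.38.

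The fifth called peak, 68.7 kb upstream (chr10:17654411-17654640), was weak. It had 32 and 14 counts in spleen control and 2, 6, 8 and 2 counts in Vps34-deficient libraries, or 1.43 and 0.964 against 0.139, 0.367, 0.361 and 0.144 CPM. In lung it held 2.98 and 2.68 CPM in control and 0.650 and 0.635 CPM in Vps34-deficient Tregs. The genotypes were separate in each tissue at this low depth. On the log2 scale this came to -2.16 ± 0.542 for spleen and to -2.14 ± 0.621 for lung. The spleen call was lost without either control library or without Vps34-deficient library 1, 2 or 4 (-1.89 to -2.43), and the lung call without any of the 4 lung libraries or either spleen control (-1.97 to -2.18).

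**Figure D2:**
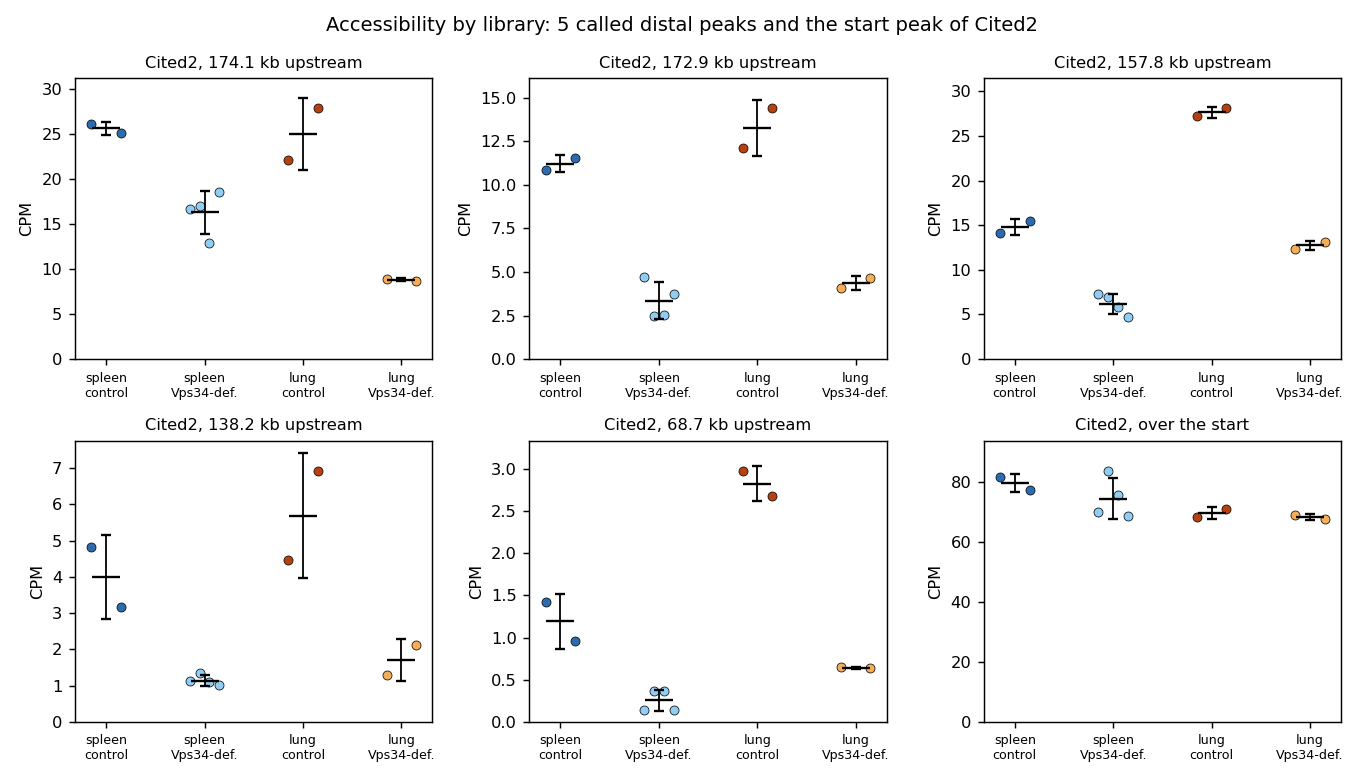
CPM of each library (points) with group mean and SD (bars) at the 5 called upstream Cited2 peaks and at the start peak, in the 4 groups. Vps34-deficient points lie below the controls of their tissue in the 5 upstream panels, and the start peak lies between 67.4 and 83.5 CPM in every library.

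Around the gene no peak was called by genotype. The peak over the Cited2 start (chr10:17722704-17723704) held 81.6 and 77.3 CPM in spleen control, and 69.8, 83.5, 75.5 and 68.4 CPM in spleen Vps34-deficient libraries. It held 68.2 and 70.8 CPM in lung control and 69.0 and 67.4 CPM in lung Vps34-deficient libraries. The genotypes overlapped in both tissues, with log2 fold changes of -0.09 ± 0.0871 and -0.05 ± 0.103. The flanking peaks 0.9 kb upstream and 1.1 kb downstream gave values of -0.21 ± 0.0969 and -0.03 ± 0.0948 in spleen, and of 0.10 ± 0.116 and 0.10 ± 0.114 in lung. The 0.9 kb peak was separate in spleen, with 61.2 and 61.6 CPM in control and 47.4, 54.1, 54.7 and 55.1 CPM in Vps34-deficient libraries, and overlapped in lung. At the peak 5.7 kb downstream the genotypes were separate in both tissues, with 18.2 ± 1.53 against 12.8 ± 1.61 CPM in lung (-0.52 ± 0.190) and 13.4 ± 0.571 against 12.2 ± 1.07 CPM in spleen (-0.13 ± 0.158).

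The remaining 15 upstream peaks were not called by genotype, although their summed signal was also lower, 55.5 ± 5.51 against 42.8 ± 3.85 CPM in spleen and 55.7 ± 0.704 against 38.9 ± 7.96 CPM in lung. Closest to being called was the peak 93.4 kb upstream, at -0.96 ± 0.251 in spleen, with 7.68 ± 0.733 CPM in control and 3.92 ± 1.19 CPM in Vps34-deficient libraries. It was called under 12 of 18 other settings. The peak farthest upstream, at 183.8 kb, was higher without Vps34 in spleen and lower in lung, and neither difference was called. It held 8.22 ± 1.10 and 9.82 ± 0.722 CPM in spleen, control and Vps34-deficient, and 4.21 ± 0.664 and 2.64 ± 1.66 CPM in lung. Both peaks were named after their values were seen.

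The region was cut at fixed positions. The nearest peak outside it upstream, at chr10:17521980-17522367, held 1.56 ± 0.0630 CPM in spleen control and 2.27 ± 0.436 CPM in Vps34-deficient Tregs. In lung it was the other way round, with 1.20 ± 0.496 CPM in control and 0.8294 ± 0.0244 CPM in Vps34-deficient Tregs, and neither difference was called. The nearest inside it was the 183.8 kb peak above. At the other edge the last peak inside, 10.0 kb downstream of the start, held 14.5 ± 2.38 and 12.8 ± 0.439 CPM in spleen, and the first outside, at chr10:17746364-17746563, held 0.543 ± 0.0115 and 0.355 ± 0.193 CPM. In lung the first outside held 2.16 ± 0.643 CPM in control and 0.533 ± 0.294 CPM in Vps34-deficient Tregs (log2 fold change -2.08 ± 0.722, separate but not called). Lower values without Vps34 were not limited to the region, since a peak farther out, at chr10:17775122-17775447, was called lower in lung (13.5 ± 0.143 against 7.37 ± 0.838 CPM, -0.89 ± 0.231).

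**Figure D3:**
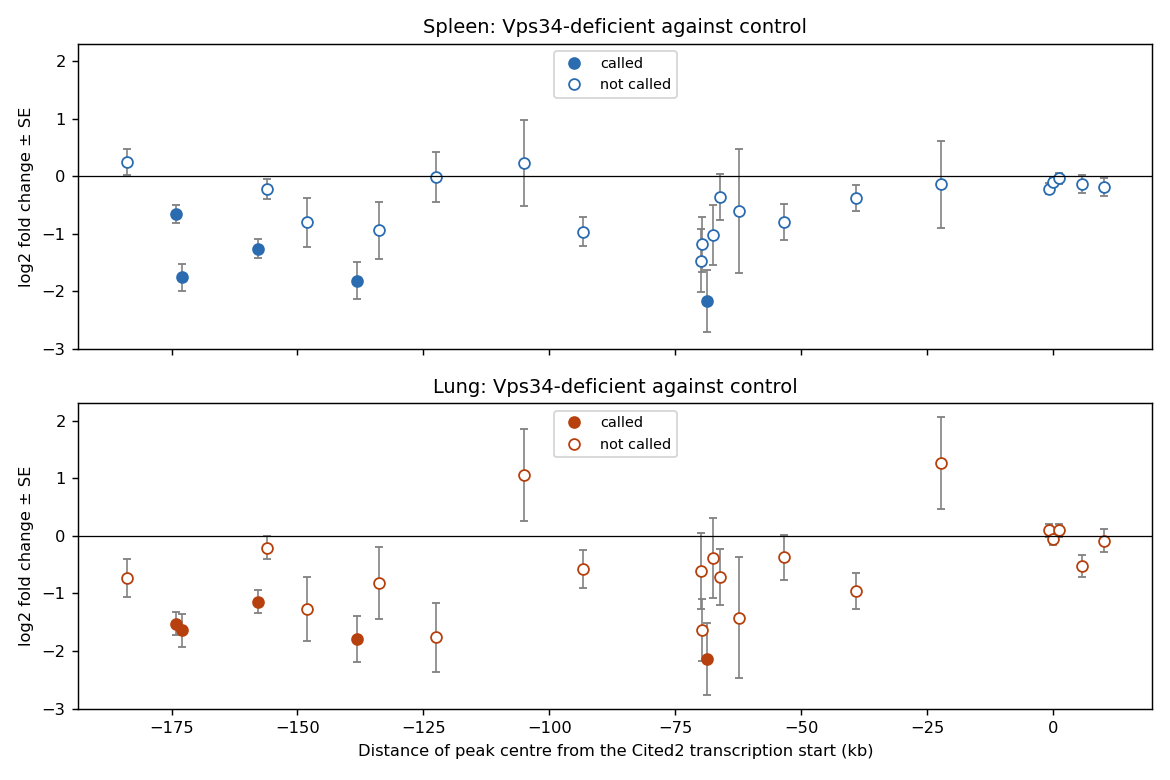
Log2 fold change of Vps34-deficient against control (± SE) at the 25 Cited2 peaks, against distance from the Cited2 start in kb, with filled points for called peaks, spleen above and lung below. The 5 called peaks lie between -0.66 and -2.16 in spleen and between -1.14 and -2.14 in lung, and the 3 peaks around the start lie between -0.21 and 0.10.

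The starts of myeloid genes also had less signal without Vps34. Their summed start signal was 22.5 to 25.0 CPM in spleen control and 15.7 to 20.7 CPM in spleen Vps34-deficient libraries, and 28.3 to 32.3 and 15.9 to 19.3 CPM in lung. Only 3 of 9 genes had a peak there. Mean signal was lower without Vps34 in both tissues at Cebpa and Cd14, while at Itgam it was 0.962 and 1.25 CPM in spleen and 1.56 and 0.967 CPM in lung, control first. Lyz2, Adgre1, Csf1r, Fcgr3, Mpeg1 and Spi1 had no peak over their start. Other marker lists also separated by genotype in 1 tissue. In lung the CD8 and NK starts held 24.0 to 30.4 CPM in control and 33.8 to 36.8 CPM in Vps34-deficient libraries, and the B cell starts 15.5 to 17.3 and 12.7 to 14.5 CPM. In spleen the epithelial starts held 34.2 to 36.2 CPM in control and 29.0 to 33.8 CPM in Vps34-deficient libraries. The same lists overlapped between genotypes in the other tissue. The part of such cells in the Cited2 values, and in those of Epas1 and Arnt2 given later, was not tested.

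Between tissues, 2 Cited2 peaks were called higher and 1 lower in lung than in spleen in control Tregs, where 11.8% and 3.53% of all fitted peaks were called higher and lower. In Vps34-deficient Tregs 2 were called higher and 2 lower, against 12.5% and 4.72%. The higher peaks were those at 157.8 and 69.7 kb in control and at 157.8 and 22.2 kb in Vps34-deficient Tregs. At 183.8 kb the log2 difference of lung from spleen was -0.91 ± 0.286 in control and -1.89 ± 0.283 in Vps34-deficient Tregs, and the control call was lost without the first or second spleen control library (-0.86 and -1.08) or the second lung control library (-0.83). The value in Vps34-deficient Tregs was called in every setting but rested on lung libraries of 1.46 and 3.81 CPM, at -1.26 without the first and -2.63 without the second. The lung genotype value at this peak, -0.73 ± 0.335 and not called, was -0.08 without the first and -1.45, and called, without the second. At 69.7 kb lung control held 4.04 and 7.76 CPM against 2.76 and 1.65 CPM in spleen control. The call was lost without any of 8 of the 10 libraries, with values of 0.84 to 1.82. It was also lost under library size scaling, DESeq2, no count filter and loess offsets (1.36 to 1.45). At 22.2 kb no group mean exceeded 1.60 CPM, and the call was lost without Vps34-deficient spleen library 1 or 3 or either Vps34-deficient lung library (1.95 to 2.50).

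Across all 56 peaks, 0 were called for a different genotype effect in lung than in spleen. The same edgeR test called 0 of all 97109 peaks (0.0%), with 7060 at an unadjusted p below 0.05, while DESeq2 called 33 of all peaks. The edgeR count of 0 over all peaks did not hold without the first lung control library, which leaves a single library in its group.

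By the likeness rule, 5 peaks on other chromosomes followed the summed Cited2 signal most closely over the 10 libraries, out of 34947 with a mean of at least 5 CPM. The libraries share tissue, genotype and depth, so these coefficients are descriptive. The peaks lay 54.5 kb from the start of Rftn1 (Pearson r = 0.97), 0.4 kb from Gm20479 (0.97), 53.4 kb from St6galnac5 (0.96), 89.4 kb from Tmem38b (0.96) and 18.3 kb from Tmem37 (0.95). At the Rftn1 peak (chr17:50135887-50136456) spleen signal was 31.3 ± 1.001 CPM in control and 24.0 ± 1.87 CPM in Vps34-deficient Tregs, and lung signal 31.2 ± 2.35 and 22.4 ± 1.57 CPM.

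Hif1a lies at chr12:73901375-73947530 on the plus strand (ENSMUSG00000021109.13), where the antisense gene Gm15283 and Gm49321 overlap parts of it or its flank, so its peaks cannot be assigned to 1 gene. The peak over its first start (chr12:73901211-73901489) was weak. It held 1.74 and 1.72 CPM in spleen control, 2.50, 1.90, 0.993 and 2.80 CPM in spleen Vps34-deficient, 2.76 and 2.68 CPM in lung control and 2.44 and 2.54 CPM in lung Vps34-deficient libraries, with log2 fold changes of 0.22 ± 0.384 and -0.15 ± 0.448 that were not called. Hif1a's strongest peak lay over a second annotated start 6.5 kb into the gene (chr12:73907490-73908165) and was level across groups. It held 72.8 and 71.7 CPM in spleen control, 68.4, 72.7, 70.7 and 71.6 CPM in spleen Vps34-deficient, 65.3 and 72.4 CPM in lung control and 64.8 and 61.6 CPM in lung Vps34-deficient libraries. The genotypes overlapped in spleen, and in lung the Vps34-deficient libraries lay just under the lower control. Its log2 fold change with genotype was -0.03 ± 0.0828 in spleen and -0.15 ± 0.0981 in lung.

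Only 1 of the 13 Hif1a peaks was called by genotype. This intronic peak 2.9 kb into the gene (chr12:73904205-73904404) was highest in lung control Tregs. It held 2.94 and 2.82 CPM in spleen control, 2.78, 2.57, 3.34 and 2.51 CPM in spleen Vps34-deficient, 6.06 and 7.48 CPM in lung control and 1.95 and 3.17 CPM in lung Vps34-deficient libraries. The lung controls stood above all 8 other libraries, which overlapped. The log2 fold change with genotype was -1.45 ± 0.332 in lung and -0.03 ± 0.277 in spleen, and the tissue difference in control was 1.31 ± 0.311. The difference between the genotype effects was -1.42 ± 0.434 and was not called. The lung genotype call was lost without the second lung control library (-1.24) or the first Vps34-deficient lung library (-1.05), and the tissue call without either spleen control library (1.24 and 1.23) or the second lung control library (1.05).

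Over the 13 Hif1a peaks the median log2 fold change was -0.03 in spleen and -0.15 in lung. In Vps34-deficient Tregs, 2 Hif1a peaks were called lower in lung than in spleen, 5.5 kb upstream and 13.4 kb downstream of the first start, at -1.31 ± 0.369 and -1.23 ± 0.402. Both calls were lost without either Vps34-deficient lung library, with values of -1.53 and -1.06 upstream and -1.11 and -1.22 downstream, and the downstream call also without the second spleen control library (-1.17) or the third Vps34-deficient spleen library (-1.11).

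Epas1 lies at chr17:86753700-86833410 on the plus strand (ENSMUSG00000024140.10) and had 12 peaks. The peak over its start (chr17:86753041-86753728) held 35.3 and 34.2 CPM in spleen control, 34.4, 32.3, 32.7 and 30.9 CPM in spleen Vps34-deficient, 35.6 and 37.0 CPM in lung control and 33.6 and 33.9 CPM in lung Vps34-deficient libraries. All libraries lay in a narrow band. The log2 fold changes with genotype were -0.09 ± 0.102 in spleen and -0.13 ± 0.122 in lung.

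At the other end of Epas1, a peak 79.3 kb downstream of the start in the 3′ untranslated exon (chr17:86832647-86833317) was lower without Vps34 in both tissues. Spleen control libraries held 4.28 and 3.31 CPM and Vps34-deficient libraries 1.11, 0.979, 1.26 and 1.29 CPM. Lung control libraries held 3.19 and 5.22 CPM and Vps34-deficient libraries 1.46 and 1.48 CPM. No Vps34-deficient library reached a control, and the 6 Vps34-deficient values were close together. Log2 fold changes were -1.70 ± 0.317 in spleen and -1.55 ± 0.403 in lung. The spleen call was lost without the first control library (-1.55), and the lung call without the second control library (-1.09) or either Vps34-deficient library (-1.47 and -1.48).

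An Epas1 intronic peak at 48.2 kb (chr17:86801467-86802277) was the only member called higher with genotype. It held 10.2 and 8.04 CPM in lung control and 16.4 and 14.3 CPM in lung Vps34-deficient libraries, and 13.5, 11.4 and 13.2, 15.7, 17.2, 12.4 CPM in spleen, control first. The lung genotypes were separate and the spleen genotypes overlapped. The log2 fold change was 0.74 ± 0.212 in lung and 0.24 ± 0.172 in spleen. By tissue, the peaks at 75.0 kb in control and at 60.2 kb in Vps34-deficient Tregs were called higher in lung, by 1.89 ± 0.505 and 1.55 ± 0.534, and no library held more than 2.98 CPM at either. The 48.2 kb call was lost without the second lung control library (0.61), the first Vps34-deficient lung library (0.71) or any of the first 3 Vps34-deficient spleen libraries (0.73). The 75.0 kb call was lost without either spleen control library (2.19 and 1.57) or the first lung control library (1.60), and the 60.2 kb call without any of 7 libraries (1.32 to 1.72).

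Egln3 lies at chr12:54178981-54203860 on the minus strand (ENSMUSG00000035105.5) and had 6 peaks, none called by genotype. Its start peak (chr12:54203067-54204104) held 35.3 and 31.3 CPM in spleen control, 28.8, 24.6, 27.6 and 23.4 CPM in spleen Vps34-deficient, 22.1 and 27.7 CPM in lung control and 20.5 and 22.01 CPM in lung Vps34-deficient libraries. Vps34-deficient libraries lay below the controls of their tissue, by a small margin in lung. The log2 fold change was -0.35 ± 0.125 in spleen and -0.26 ± 0.155 in lung, and neither was called.

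**Figure D4:**
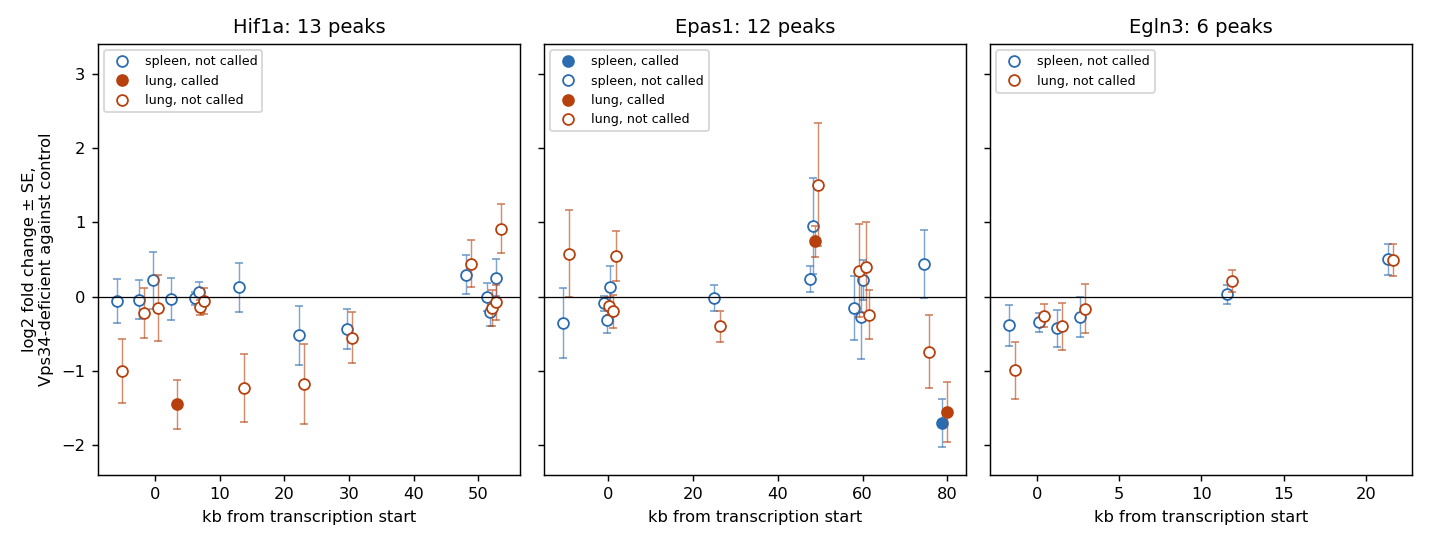
Log2 fold change of Vps34-deficient against control (± SE) for the 13 Hif1a, 12 Epas1 and 6 Egln3 peaks, against distance from each gene's start in kb, in spleen (blue) and lung (brown), filled where called. Called peaks are the lung value of -1.45 at Hif1a and the values of -1.70, -1.55 and 0.74 at Epas1, and peaks over annotated starts lie between -0.35 and 0.22.

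The tissue difference at Egln3 lay inside the gene. An intronic peak 21.5 kb downstream of the start (chr12:54182291-54182501), named after its values were seen, held 5.53 and 6.89 CPM in spleen control and 9.46, 7.71, 8.12 and 9.62 CPM in spleen Vps34-deficient libraries. It held 22.2 and 13.8 CPM in lung control and 28.1 and 22.7 CPM in lung Vps34-deficient libraries. Every lung library was above every spleen library. The log2 difference of lung from spleen was 1.61 ± 0.231 in control and 1.60 ± 0.184 in Vps34-deficient Tregs, and both were called under all 18 other settings. With genotype the peak gave 0.50 ± 0.205 in spleen and 0.49 ± 0.217 in lung, opposite in sign to the start peak, and neither was called.

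Over the 31 peaks of Hif1a, Epas1 and Egln3, 0 were called higher and 1 lower in spleen by genotype, and 1 higher and 2 lower in lung. Over all fitted peaks these shares were 0.441% and 1.02% in spleen and 1.22% and 3.74% in lung, so counts this small do not set the 3 genes apart. By tissue, 3 were called higher and 0 lower in lung in control Tregs, and 2 higher and 2 lower in Vps34-deficient Tregs, beside 11.8%, 3.53%, 12.5% and 4.72% of all fitted peaks. The median log2 fold change with genotype was -0.03 in spleen and -0.15 in lung.

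The wider pathway was read at 238 fitted peaks in 49 genes, from 4 lists of HIF subunits and partners, hydroxylation and degradation genes, glycolysis targets and other targets. These genes were not members, but the lists too were chosen with earlier results of these data known. Adjusted p-values from edgeR over all fitted peaks are given as descriptions, not as independent evidence. In spleen 1 peak rose and 1 fell without Vps34, and in lung 1 rose and 9 fell. The 9 were 3.78% of the pathway peaks, as against 3.74% of all fitted peaks, so the count was at the background. Both lung counts depended on single lung libraries, and leaving one out leaves a single library in its group. Without the first lung control library both were larger, and without any other lung library fewer peaks fell. The counts over all fitted peaks moved the same way. The 1 pathway peak that rose was lost without any of the Vps34-deficient spleen libraries. In spleen each pathway count was 0.42%, against 0.441% of all peaks higher and 1.02% lower. Pathway peaks had a median log2 fold change of -0.00 in spleen and -0.05 in lung.

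Arnt2 encodes a partner subunit related to HIF-1β. Of its 9 peaks, 1 fell in spleen and 3 fell in lung, and the peak over its start was not called in either tissue (0.18 ± 0.520 and -1.58 ± 0.670). The intronic peak 23.4 kb from the start (chr7:84386453-84387130) held 6.59 and 8.13 CPM in spleen control and 1.11, 2.20, 0.722 and 2.01 CPM in spleen Vps34-deficient libraries. Lung control libraries held 19.8 and 23.4 CPM and lung Vps34-deficient libraries 1.14 and 2.33 CPM. The 6 Vps34-deficient libraries were alike and all below the controls. Arnt2 accessibility at this peak fell by 2.31 ± 0.298 on the log2 scale in spleen (edgeR adjusted p = 8.28e-05) and fell by 3.71 ± 0.379 in lung (edgeR adjusted p = 3.12e-06). A second Arnt2 peak, 5.3 kb from the start, had 24 and 28 counts in the lung controls and 0 in both Vps34-deficient libraries, at least 8.07-fold lower when each empty library is set to 3 counts (edgeR adjusted p = 0.00162). In spleen this peak held 0.340 ± 0.103 CPM in control and 0.160 ± 0.0873 CPM without Vps34 and was not called (-1.08 ± 0.792). The calls at the 23.4 kb peak held with any single library left out.

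**Figure D5:**
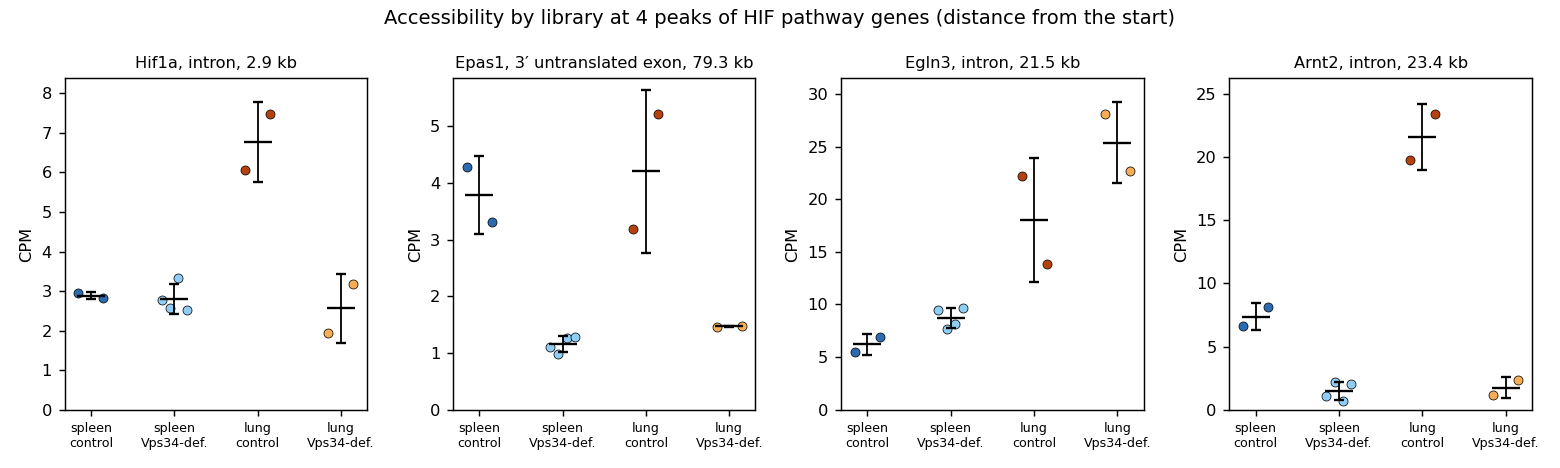
CPM of each library (points) with group mean and SD (bars) at peaks of Hif1a, Epas1, Egln3 and Arnt2, in the 4 groups. Lung control stands alone at Hif1a, Vps34-deficient points lie below controls at Epas1 and Arnt2, and both lung groups lie above both spleen groups at Egln3.

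Among the other pathway genes in spleen, a coding exon peak of Pfkp, a phosphofructokinase gene, rose by 2.16 ± 0.527 from 0.340 ± 0.103 CPM (edgeR adjusted p = 0.0359). In lung, an intronic peak of the glucose transporter gene Slc2a1 fell by 0.95 ± 0.195 on the log2 scale (edgeR adjusted p = 0.0044), and of Slc2a3 fell by 0.98 ± 0.206 (edgeR adjusted p = 0.00514). In the same comparison an intronic peak of Egln1, the main HIF prolyl hydroxylase gene, fell by 1.60 ± 0.356 (edgeR adjusted p = 0.00832) and an intergenic peak near the HIF target Bhlhe40 fell by 1.11 ± 0.263 (edgeR adjusted p = 0.0129). The hexokinase gene Hk1 had a peak that rose by 0.78 ± 0.224 (edgeR adjusted p = 0.0435) and another that fell by 2.41 ± 0.652 (edgeR adjusted p = 0.0299). The latter, named after its values were seen, rested on 5.93 CPM in the second lung control library (1.70 CPM in the first), without which it was -1.17 and not called; it was also lost without either Vps34-deficient lung library (-2.14 and -2.51). Leaving out 1 library of the lung comparison ended the calls at Slc2a1 (-0.63 without the second lung control library), Slc2a3 (-0.70), Egln1 (-1.04) and Bhlhe40 (-1.04), and leaving out the first spleen control library that at Pfkp (1.79). Other single libraries also ended these calls, with values of 2.04 to 2.42 at Pfkp, 0.69 to 0.98 at the Hk1 peak that rose and -0.72 to -1.64 at the rest.

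By tissue, 21 pathway peaks were higher and 4 lower in lung than in spleen in control Tregs, and 16 were higher and 8 lower in Vps34-deficient Tregs. The higher peaks were 8.82% and 6.72% of the list, below the 11.8% and 12.5% of all fitted peaks, and the lower ones 1.68% and 3.36%, below 3.53% and 4.72%. The balance of directions depended on the setting. In control it was 16 higher and 9 lower under library size scaling or with no count filter. Over all fitted peaks these settings gave 10370 and 4568, and 10251 and 4691. Without either lung control library, which leaves a single library in that group, higher pathway peaks no longer outnumbered lower ones. Without the first spleen control library they barely did. In Vps34-deficient Tregs it was 15 and 13 under library size scaling or with no count filter, where all fitted peaks gave 11474 and 5751, and 11469 and 5784. Without the second Vps34-deficient spleen library it was 11 and 12, beside 9578 and 4474 of all fitted peaks. The lower share was then above that of all fitted peaks. The balance also shifted without the second Vps34-deficient lung library, which leaves a single library in its group. The Egln1 start peak rose from 101 ± 5.52 to 161 ± 35.7 CPM in control, by 0.75 ± 0.122 (edgeR adjusted p = 0.000235), whereas the start peak of Hif1an, the HIF asparagine hydroxylase gene, fell by 0.53 ± 0.166 (edgeR adjusted p = 0.0302). In control, peaks at Bhlhe40 rose by 1.68 ± 0.223 (edgeR adjusted p = 5.65e-05), at the collagen prolyl hydroxylase gene P4ha2 by 1.58 ± 0.287 (edgeR adjusted p = 0.000613) and at Arnt2 by 1.64 ± 0.306 (edgeR adjusted p = 0.000777). Besides Hif1an, peaks fell at the HIF target Ndrg1 by 1.31 ± 0.297 (edgeR adjusted p = 0.0039), at Hk1 by 0.66 ± 0.178 (edgeR adjusted p = 0.0129) and at Slc2a3 by 0.84 ± 0.265 (edgeR adjusted p = 0.0322). The Hk1 and Slc2a3 calls did not hold under every setting. Without the first lung control library the values at Egln1 (0.43), Hif1an (-0.52) and P4ha2 (0.83) were no longer called, and that at Hif1an was lost without either spleen control library too (-0.63 and -0.59).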

How the data were processed

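The deposited values are whole-number read counts per peak and library, not normalised. Per the study's methods, the authors trimmed reads, aligned them with BWA, removed duplicates with Picard, shifted ends for Tn5, kept nucleosome-free fragments, called peaks per sample with MACS2, kept those found in at least 1 of 2 or 2 of 4 replicates of a genotype, merged them and counted reads with bedtools. The submitters' processing notes name cutadapt 1.9, Picard 1.65 and MACS2 2.1.0.20150603. The methods name mm9, but the notes name GRCm38, and 51.3% of 21938 gene starts lay in a peak on that build against at most 2.82% after shifting. The methods give the spleen numbers in reverse, and the labels were followed. Both mates were counted (91.5% to 96.5% of counts were even), so counts overstate fragments.

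Positions count from 1. Genes came from GENCODE vM21 and sequence from RefSeq GRCm38.p6. The sequence of 1 called peak is not reported here. All 10 libraries were fitted with 4 groups in edgeR 4.0.16 (R 4.3.3) after TMM scaling and filterByExpr. Each log2 fold change has a standard error from the fold and the test statistic. Fits were tested on simulated data with 200 changed peaks. Of 2-fold changes 30.5% were called in spleen and 11% in lung, and of 4-fold changes 96.5% and 82%. The simulation gave every peak the same spread (a coefficient of variation of 17.79%) and no tissue difference, so these shares may not hold for the real libraries. The alternatives tried were scaling by library size or by median of ratios, DESeq2 1.42.0, no filter, halved counts, loess offsets, the compared groups alone, a replicate block, leaving out each library and a threshold of 1 on the log2 fold change.

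Given by library were the start peak of each gene (the strongest, if several), its strongest peak, up to 8 called Cited2 peaks and up to 3 called peaks of each other gene, by smallest p in a genotype comparison. Likeness used log2 CPM with 0.5 CPM added. Pathway peaks were named up to 2 per list, comparison and direction, and only some of these are printed. Members and lists were chosen with earlier results of these data known.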

Additional observations from a re-analysis of the deposited data

Results flagged for a closer look

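At the Epas1 coding exon peak 75.0 kb downstream of the start, the genotypes separated in opposite directions in the 2 tissues. Spleen Vps34-deficient libraries held 1.11, 0.979, 0.903 and 1.005 CPM, all above the spleen controls (0.891 and 0.551 CPM), while lung Vps34-deficient libraries held 1.46 and 1.69 CPM, both below the lung controls (2.98 and 2.26 CPM). The spleen margin was narrow, 0.903 against 0.891 CPM, on 20 and 8 counts in control and 16, 16, 20 and 14 in Vps34-deficient libraries. The difference between the log2 genotype effects, lung minus spleen, was -1.18 ± 0.674 (SE) and was not called in the edgeR interaction test.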

How the results depend on the processing

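Calls were counted per group of peaks. At the Cited2 peaks, scaling, filter, DESeq2, halved counts, loess offsets and the compared groups alone left each count within 1.5 times; the tissue count in control fell from 3 to 1 at a log2 threshold of 1. With the replicate block, 2 rather than 5 Cited2 peaks were called in spleen by genotype, all of them lower. Over all fitted peaks, lower calls in spleen went from 994 to 252 with the block, and in lung from 3632 to 2310. Calls by tissue without Vps34 went from 12095 higher and 4583 lower to 5040 and 1711. Over Hif1a, Epas1 and Egln3 the block gave 0 rather than 1 in spleen, 1 rather than 3 in lung and 1 rather than 4 by tissue without Vps34, and the compared groups alone gave 0 in lung by genotype. Over the pathway lists the block gave 1 rather than 2 in spleen and 10 rather than 24 by tissue without Vps34, where a threshold of 1 gave 14. The compared groups alone gave 5 in spleen, 5 in lung (10 in the full fit) and 15 by tissue in control (25). Over all fitted peaks the same fits gave 1370 higher and 1798 lower in spleen, and 139 and 1684 in lung. By tissue in control they gave 7880 and 2013. Same-numbered libraries deviated with correlations of -0.0981 to 0.0639. With 2 libraries in a group deviations mirror each other, so these values cannot tell whether the numbers pair the libraries. Leaving out each library in turn gave 2 to 6 Cited2 calls in spleen, 3 to 6 in lung, 0 to 4 by tissue in control and 3 to 5 without Vps34. It gave 0 to 1, 0 to 4, 1 to 3 and 1 to 4 for the other 3 genes, and 1 to 3, 3 to 16, 9 to 30 and 11 to 30 for the pathway. The interaction stayed at 0 calls in the members throughout, and could not be fitted with the compared groups alone. Counts over all fitted peaks moved with single libraries too. By genotype in spleen, 428 were called higher and 994 lower in the full fit. These became 103 and 776 without the second Vps34-deficient spleen library, and 949 and 993 without the third. The cause of these shifts was not tested. Of 1079 single-peak values, 1001 moved by less than the spread between libraries, 78 by more, and 0 called values changed sign. With 2 libraries in most groups, simulated 2-fold changes were often missed, so an uncalled peak is not shown to be alike between groups.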
